A study of Mus musculus with 21 samples.

Results

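The matrix metalloproteinases *Mmp2*, *Mmp3*, *Mmp9*, *Mmp10*, *Mmp13* and *Mmp14* and the tissue inhibitors of metalloproteinases *Timp1*, *Timp2*, *Timp3* and *Timp4* were followed through 21 RNA sequencing (RNA-seq) libraries of mouse embryonic fibroblasts (MEFs). These 10 genes were taken by symbol from the 24454 genes of the deposited count table, whatever their level, and 9 of them passed the filter on low counts that kept 13719 genes for testing. Only *Timp4* did not, with at most 2 counts in any library. *Mmp3*, *Mmp10* and *Mmp13* passed solely through the Trf1f/f groups, where they are high, so that their higher level there is in part set by the filter. Without those groups the other 6 (*Mmp2*, *Mmp9*, *Mmp14*, *Timp1*, *Timp2* and *Timp3*) would pass. Counts of members are given over these 6, except where the 9 tested members or genes outside the 6 are named. Cells came from 3 lines with 3 libraries in each of 7 groups. Rtel1f/f MEFs carry floxed alleles of *Rtel1*, a helicase that dismantles G-quadruplex (G4) DNA and telomeric loops, and were infected with a GFP adenovirus (+GFP), with a Cre adenovirus that removes the floxed alleles (+Cre), or with the GFP virus followed by 10 μM TMPyP4, a ligand that stabilizes G4-DNA, for the last 48 h. Rtel1f/f cells transduced with RTEL1 C1252A/C1255A (here RTEL1 CA), a mutant that cannot unwind telomeric loops, received either virus, and so did Trf1f/f cells, whose floxed gene, *Terf1*, encodes a telomere-binding protein. All RNA was collected 96 h after infection. All groups, controls included, were therefore floxed and infected with adenovirus, and because Cre came with the virus, a +Cre group can hold cells that kept the floxed alleles. The labels call the libraries of a group biological replicates without saying whether they came from separate infections or embryos, so p values measure the spread between these libraries, which may be technical.

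Matrix metalloproteinases are zinc-dependent enzymes that cut collagens, gelatin, proteoglycans and other parts of the extracellular matrix, and they are made as inactive proenzymes. Fibroblasts are a main source of them. MMP14 is anchored in the membrane and, together with TIMP2, activates MMP2 at the cell surface, so that TIMP2 both supports and limits this protease. MMP2 and MMP9 are gelatinases, MMP13 is a collagenase of rodent connective tissue, and MMP3 and MMP10 are stromelysins, which also activate other proenzymes. TIMPs bind the active site of the proteases. TIMP1 and TIMP2 are secreted, TIMP3 is held in the matrix and also inhibits some ADAM proteases, and TIMP4 has a narrower tissue distribution. Many metalloproteinase promoters respond to AP-1, the dimer of Fos and Jun proteins that binds TGAGTCA.

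On GRCm38, the assembly behind mm10, the stromelysin and collagenase genes lie close together on the same strand, with *Mmp13* at chr9:7272514-7283333, *Mmp3* at chr9:7445822-7455975 and *Mmp10* at chr9:7502342-7510242. *Mmp2* spans chr8:92827290-92853421, *Mmp9* chr2:164940326-164955850 and *Mmp14* chr14:54431598-54442456. The inhibitor genes are at chrX:20870166-20874737 (*Timp1*), chr11:118301061-118355411 (*Timp2*), chr10:86300412-86349505 (*Timp3*) and chr6:115244444-115252205 (*Timp4*). *Timp1*, *Timp3* and *Timp4* each lie within the span of a synapsin gene (*Syn1*, *Syn3* and *Syn2*), which had at most 196, 15 and 3 counts in any library, and the counting used the strand of the reads. RefSeq promoter sequences of GRCm38.p6 were matched for 8 members, *Mmp2* and *Mmp9* being the others. In the 250 bases before the annotated start, TGAGTCA or its reverse complement was present in *Mmp3*, *Mmp10* and *Mmp13*, each with a single match, and in 4.46% of the 32851 promoters in the table. The 100 bases before the start of these 3 genes are shown because the genes shared a pattern across the lines, with the match in capitals. The windows are chr9:7445722-7445821, chr9:7502242-7502341 and chr9:7272414-7272513, all on the plus strand, and the match begins 46, 63 and 35 bases before the start.
Mmp3: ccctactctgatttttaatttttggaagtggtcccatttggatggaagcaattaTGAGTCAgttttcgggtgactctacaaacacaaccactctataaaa
Mmp10: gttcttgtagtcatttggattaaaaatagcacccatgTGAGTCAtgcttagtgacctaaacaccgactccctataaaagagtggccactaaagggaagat
Mmp13: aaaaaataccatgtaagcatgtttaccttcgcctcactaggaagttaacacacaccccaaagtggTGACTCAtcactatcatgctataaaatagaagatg

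Because the study set *Rtel1* loss beside a G4 ligand, the same 250 bases were searched on both strands for a G4 pattern, 4 runs of at least 3 G separated by 1 to 7 bases of any kind. It was present in 16.7% of all promoters. Among the 8 matched members, *Timp2* and *Timp3* had it on the gene strand and *Timp4* on the other strand, while these letters were not in the windows of *Mmp3*, *Mmp10*, *Mmp13*, *Mmp14* or *Timp1*. The runs of *Timp2* (minus strand, chr11:118355426-118355486) and *Timp3* (plus strand, chr10:86300249-86300313) are shown in capitals with their neighbouring bases. Both genes passed the test after TMPyP4, *Timp2* lower and *Timp3* higher. *Mmp13*, without the pattern, and *Mmp9*, whose promoter was not matched, also passed it.
Timp2: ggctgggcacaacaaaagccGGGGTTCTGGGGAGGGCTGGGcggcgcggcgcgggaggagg
Timp3: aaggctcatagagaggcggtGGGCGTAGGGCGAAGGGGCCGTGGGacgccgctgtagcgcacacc
A match of letters is a description of the sequence and does not show that a factor or a G4 structure forms there.

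Library depth was between 32069888 and 51938593 counts, with a median of 43013208, and values are given as CPM, counts relative to the normalized library size, unless stated. The targeted genes followed the labels, with *Rtel1* at 59.1 to 66.2 CPM in Rtel1f/f +GFP cells and 26.8 to 31.9 CPM in +Cre cells. *Terf1* was at 27.9 to 30.3 CPM in Trf1f/f +GFP cells and had 5, 2 and 1 counts with Cre. Both kinds of RTEL1 CA cells had *Rtel1* at 253 to 338 CPM, where the counts do not separate the vector from the floxed gene. The 8 fibroblast markers examined summed to at least 7000 CPM in every library. Markers of macrophages, endothelium, epithelium and skeletal muscle summed to at most 4.45 CPM per list in any library. The macrophage marker *Adgre1* and the muscle marker *Myod1* had 0 counts throughout, while other markers of their lists had counts.

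The levels of the members differed widely. Scaled for transcript length as TPM, a share of all transcripts in the library, in which genes can be set against each other, *Timp2* and *Timp1* led in Rtel1f/f +GFP cells with 522 ± 49.4 and 444 ± 4.79 TPM (SD, n = 3). *Mmp2* followed with 376 ± 9.82 TPM, *Mmp14* with 292 ± 27.6 TPM, *Timp3* with 114 ± 14.9 TPM and *Mmp9* with 89.8 ± 18.2 TPM. *Timp3* and *Mmp9* are neighbours in this order that overlapped, at 101 to 130 TPM and 69.7 to 105 TPM. *Mmp13*, *Mmp3* and *Mmp10* were each at 0.11 TPM or less. In RTEL1 CA +GFP cells, *Timp1* had 402 ± 30.8 TPM and *Timp2* 325 ± 16.6 TPM, so *Timp1* led there without overlap, and *Mmp9* had only 3.54 ± 0.923 TPM. In Trf1f/f +GFP cells *Timp1* (466 ± 43.0 TPM) and *Timp2* (433 ± 18 TPM) did not differ beyond their spread, nor did *Mmp14* (369 ± 28.1 TPM) and *Mmp2* (366 ± 22.5 TPM). *Mmp14*, *Mmp2*, *Timp1* and *Timp2* had means of at least 130 TPM in all 7 groups, while the other proteases had means of at most 89.8 TPM in any group.

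**Figure D1:**
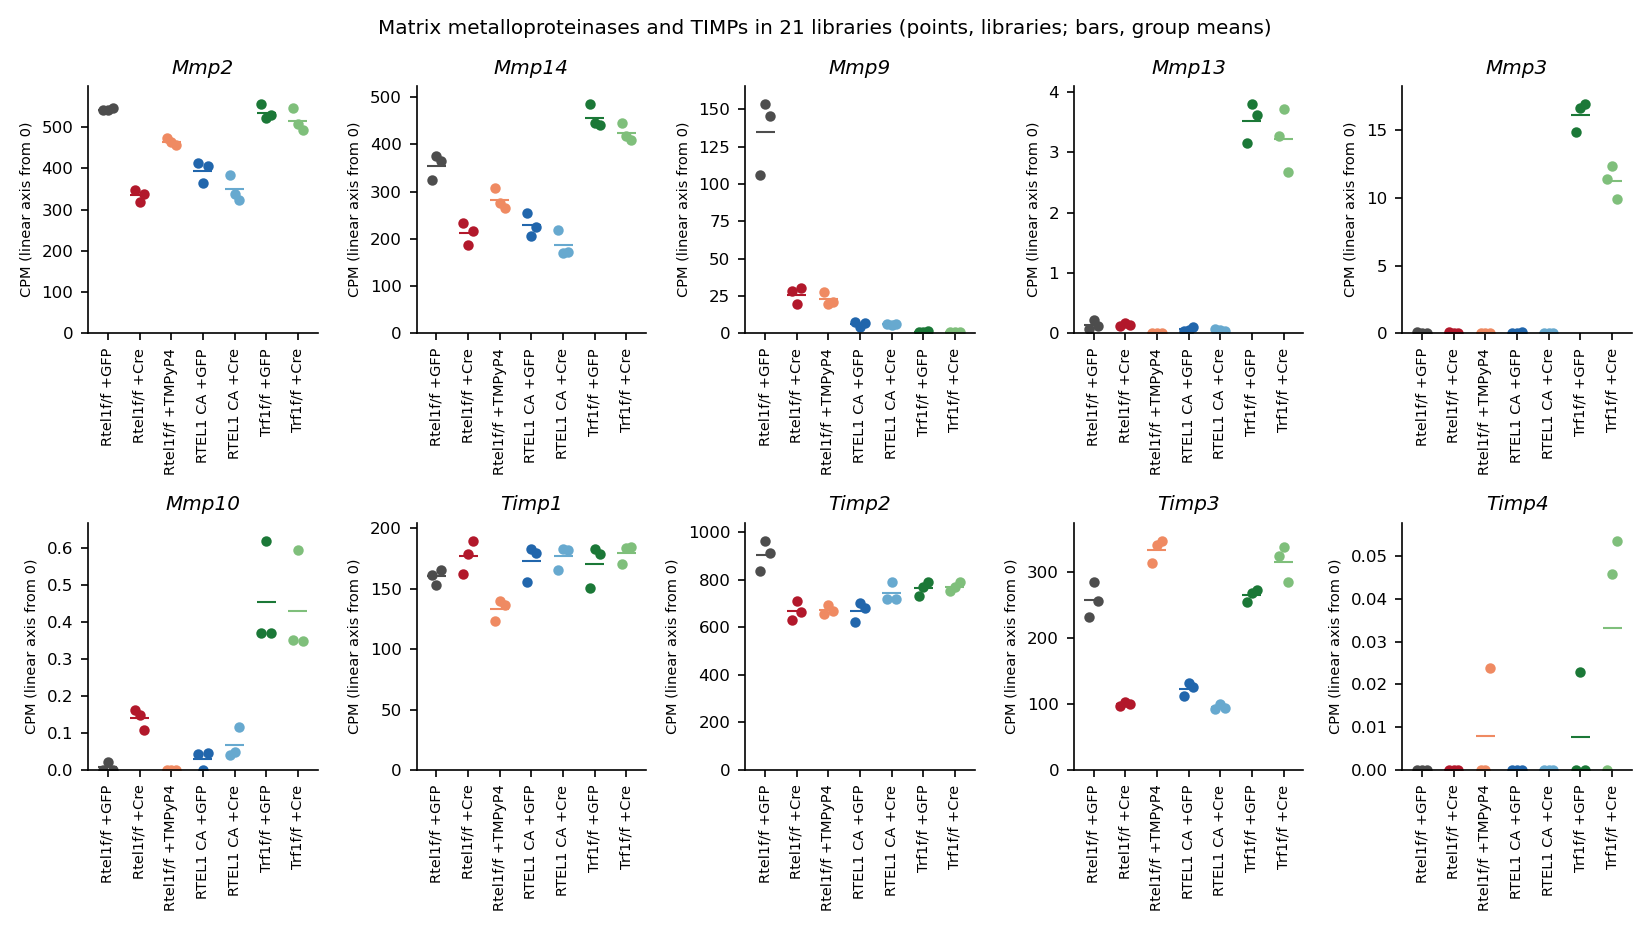
CPM of each of the 10 genes (vertical axes, linear from 0) in the 3 libraries of each of the 7 groups (points), with the group mean as a bar. Mmp9 stands out in Rtel1f/f +GFP cells at 106 to 153 CPM, Mmp13, Mmp3 and Mmp10 are near 0 outside the Trf1f/f line, and Timp1 stays between 123 and 190 CPM in all libraries.

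Loss of *Rtel1* reduced 5 of the 6 members and increased 0. *Mmp9* fell most, *Timp3* next, and the activating trio *Mmp14*, *Mmp2* and *Timp2* fell by less than 1 log2 unit each, whereas *Timp1* did not pass the test. Outside the 6, the low-count *Mmp10* was called higher. A difference was called where the quasi-likelihood test of edgeR gave a Benjamini-Hochberg adjusted p, over all 13719 genes, no higher than 0.01. Of these, 43% were called in the same comparison (22% increased and 21% reduced), so that calls were common. On the deposited TPM values, 23.1% of the calls in this comparison were increases, against 51.1% on counts, and the median of all genes moved from -0.034 to -0.188 on the log2 scale, so a TPM difference is to be read against that shift. The median log2 fold change of the 6 on counts was -0.72.

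The gelatinase gene *Mmp9* had 106, 153 and 146 CPM in Rtel1f/f +GFP cells and 28.2, 19.5 and 30.5 CPM in +Cre cells. Every +Cre library was below every +GFP library, and the lowest control was replicate 1. The log2 fold change was -2.38 ± 0.214 (SE, edgeR adjusted p = 8.43e-08), a 5.19-fold lower level. For *Mmp2*, the other gelatinase, the control libraries were close together at 541, 540.2 and 545 CPM, and the +Cre libraries had 348, 318 and 337 CPM. These groups were also separate, with a log2 fold change of -0.70 ± 0.0681 (edgeR adjusted p = 1.51e-07). The gene of its activator, *Mmp14*, went from 325, 376 and 365 CPM to 234, 188 and 217 CPM, again without overlap, and fell by 0.74 on the log2 scale (SE 0.105, edgeR adjusted p = 1.17e-05).

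Among the inhibitors, *Timp3* went from 231, 285 and 255 CPM in +GFP libraries to 96.1, 103 and 99.2 CPM in +Cre libraries. The highest +Cre library was thus below the lowest control, and the log2 fold change was -1.37 ± 0.0837 (edgeR adjusted p = 5.61e-10), the smallest p among the members in this comparison. The control libraries of *Timp2* were at 834, 963 and 913 CPM, those with Cre at 629, 708 and 665 CPM. It was lower in every +Cre library, with a log2 fold change of -0.44 ± 0.0679 (edgeR adjusted p = 3.05e-05). *Timp1* measured 162, 153 and 166 CPM in the controls, compared with 162, 178 and 190 CPM after *Rtel1* loss. These groups overlapped, and the difference of 0.14 on the log2 scale had a 95% interval from -0.04 to 0.32. On TPM values its sign turned, to -0.10, which was above the median of all genes there.

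The proteases of the chromosome 9 group were close to the limit of detection in this line. *Mmp10* had 0, 1 and 0 counts in the +GFP libraries and 7, 6 and 4 counts in the +Cre libraries. Higher counts appeared in each +Cre library, and per normalized library size the ratio of summed counts was 20.4 with a 95% counting interval from 3.19 to 851 (17 against 1 counts). The interval covers counting error only. The edgeR test gave an adjusted p of 0.00137, which became 0.0291 in a limma test of log2(TPM + 1), and the fitted log2 fold change moved from 3.87 to 5.62 without +GFP replicate 2, which held the only control count. *Mmp13* had 3, 11 and 6 counts with GFP and 5, 7 and 5 counts with Cre, and *Mmp3* had 4, 1 and 1 counts with GFP and 3, 0 and 1 counts with Cre. No difference was detectable for either at this depth (edgeR adjusted p = 0.972 and 0.795), and *Timp4* had 0 counts in all 6 libraries.

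**Figure D2:**
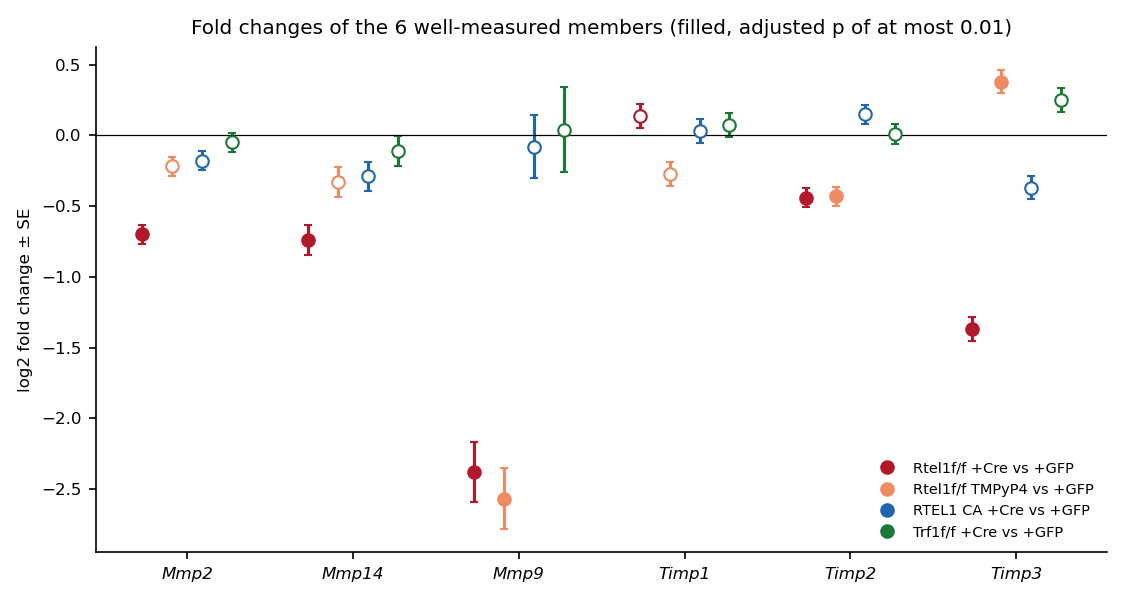
Log2 fold change (points) with its SE (bars) of the 6 members at 0.690 CPM or above in every library, in 4 comparisons of treated with +GFP cells of the same line. Filled points passed an adjusted p of 0.01. Timp3 lies at -1.37 after Rtel1 loss and 0.38 after TMPyP4, and no point of the RTEL1 CA or Trf1f/f lines is filled.

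Fibroblast markers moved with these members. Their summed level was 19200 to 21100 CPM in Rtel1f/f +GFP cells, 7300 to 10100 CPM in +Cre cells and 10500 to 14100 CPM in TMPyP4-treated cells, and 6 of 8 were reduced after *Rtel1* loss, such as the collagen gene *Col3a1* (log2 fold change -2.35) and the receptor gene *Pdgfrb* (-1.71). *Thy1* was increased and *Vim* was not called, where 22% of all genes were increased and 21% reduced. The part of this shift in the members' changes was not tested, and in bulk RNA fewer cells of a kind and less RNA per cell cannot be told apart. The 8 markers of macrophages, which also make MMP9, summed to 0.481 to 0.740 CPM in +GFP cells and 1.67 to 2.06 CPM in +Cre cells. Of the 8, 2 had 0 counts in +GFP cells and 3 in +Cre cells. The 2 macrophage markers that passed the filter were called higher after *Rtel1* loss. So were 2 of 3 tested endothelial markers, while 1 of 3 tested epithelial markers was called lower. The part of these markers in the members' changes was not tested.

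TMPyP4 was compared with the same +GFP libraries, so that these changes share their controls with those after *Rtel1* loss. The ligand reduced *Mmp9* and *Timp2* and increased *Timp3*, which made 3 of the 6 members called, where 30% of all genes tested were (16.6% increased and 13.4% reduced, with 22.3% of calls increases on TPM against 55.4% on counts). The median log2 fold change of the 6 was -0.3, against -0.010 for all genes. *Mmp13*, outside the 6, was also called lower. *Mmp9* had 27.7, 19.9 and 20.8 CPM after TMPyP4, with a log2 fold change of -2.57 ± 0.216 (edgeR adjusted p = 1.57e-07). No treated library reached the lowest control of 106 CPM, and the treated libraries lay within the 19.5 to 30.5 CPM of +Cre cells. *Timp2* had 655, 695 and 667 CPM (log2 fold change -0.43 ± 0.0679, edgeR adjusted p = 7.68e-05), likewise below every control.

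*Timp3* changed in the other direction from that after *Rtel1* loss. It had 313, 341 and 347 CPM in treated cells, all above the highest control of 285 CPM, and a log2 fold change of 0.38 ± 0.0821 (edgeR adjusted p = 0.00128). The size was modest, at 1.3-fold, and the call depended on +GFP replicate 3, without which it was 0.35 with an adjusted p of 0.0193. On TPM values it was 0.19 with an adjusted p of 0.0943 in limma, where the median of all genes was -0.139.

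*Mmp2* had 473, 463 and 457 CPM and *Mmp14* 307, 276 and 265 CPM after TMPyP4. Both lay below all controls in every treated library, by 0.22 and 0.33 on the log2 scale, but missed the threshold (edgeR adjusted p = 0.0129 and 0.0167), and both passed it in DESeq2 (adjusted p = 0.000799 and 0.00334). *Timp1* had 123, 140 and 137 CPM, also below all controls, with a log2 fold change of -0.27 ± 0.0848 that was not called (edgeR adjusted p = 0.0174). These were the lowest *Timp1* values of any group. *Mmp13* had 0 counts in all 3 treated libraries against 20 over the 3 controls (edgeR adjusted p = 0.000232). With the treated group set to a floor of 3 counts the level was 5.34-fold lower, and the 95% counting interval of the ratio has its lower bound at 3.95. The *Mmp13* call was lost on TPM values (limma adjusted p = 0.0689). *Mmp3* and *Mmp10* also had 0 counts in all treated libraries.

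The direct comparison of *Rtel1* loss with TMPyP4 gave the clearest separation for *Timp3*. The +Cre libraries were at 96.1 to 103 CPM and the treated libraries at 313 to 347 CPM, and the log2 difference was -1.75 ± 0.0845 (edgeR adjusted p = 1.17e-10). Of the 6 members, 4 were called, where 15.2% of all genes were (6.13% higher after *Rtel1* loss and 9.09% lower). A fit of only these groups called 2, without *Mmp14* and *Timp1*. *Mmp2* was lower after *Rtel1* loss than after TMPyP4 (log2 difference -0.47 ± 0.0679, adjusted p = 5.21e-05), as was *Mmp14* (-0.41 ± 0.105, adjusted p = 0.00771). *Mmp9* and *Timp2* overlapped between the conditions, and their log2 differences had 95% intervals from -0.24 to 0.63 and from -0.15 to 0.13.

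*Timp1* was higher after *Rtel1* loss than after TMPyP4, by 0.41 ± 0.0849 on the log2 scale (edgeR adjusted p = 0.00165), with no overlap. The *Mmp14* call was lost when any library except +Cre replicate 1 was left out (adjusted p from 0.0113 to 0.0439), and the *Timp1* call without +Cre replicate 3 (0.0111) or TMPyP4 replicate 1 (0.0132). *Mmp10* and *Mmp13* each had 17 counts over the +Cre libraries and 0 over the treated ones (edgeR adjusted p = 0.0023 and 0.000472). With the treated group set to a floor of 3 counts either gene was 5.43-fold higher, with a lower 95% counting bound of 3.96. These genes are outside the 6, and neither passed on TPM values (limma adjusted p = 0.0469 and 0.157). Same-numbered libraries of these groups deviated together, and a fit with replicate blocks again called 6 when these genes are included.

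Cre in RTEL1 CA cells called none of the 9 tested members, where 1.09% of all genes were called (0.525% increased and 0.569% reduced). *Timp3* came closest, at 112, 132 and 126 CPM in controls, then 91.7, 100.4 and 93.6 CPM in +Cre cells. The groups did not overlap, and the log2 fold change of -0.37 ± 0.0825 had an edgeR adjusted p of 0.017. Libraries with the same replicate number deviated together in this line, and with the replicate block the same value had an adjusted p of 0.0058, which called it. In +GFP libraries *Mmp2* was at 413, 363 and 407 CPM and *Mmp14* at 255, 206 and 226 CPM. In +Cre libraries they were at 385, 339 and 322 CPM and at 219, 170 and 173 CPM. Both genes overlapped between the groups but were lower with Cre in each same-numbered pair. Their log2 fold changes were -0.18 (95% interval -0.32 to -0.03) and -0.29 (-0.51 to -0.07), with edgeR adjusted p of 0.203 and 0.170, or 0.0925 and 0.0587 with the replicate block.

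*Mmp9* was low in this line in either state, at 7.41, 4.48 and 7.13 CPM in controls, then 6.10, 5.52 and 6.48 CPM with the Cre virus, and its log2 fold change of -0.08 had a 95% interval from -0.54 to 0.39. *Timp2* measured 621, 702 and 682 CPM in controls against 720, 792 and 717 CPM in +Cre cells, a difference of 0.15 on the log2 scale (adjusted p = 0.297, or 0.102 with the block) that was positive in each pair, and *Timp1* stayed between 156 and 183 CPM. The chromosome 9 group had at most 5 counts per library for each gene. At an unadjusted p under 0.05, 4 members (*Mmp2*, *Mmp14*, *Timp2* and *Timp3*) would be counted, where 14.2% of all genes would, and DESeq2 called 1, *Timp3* (adjusted p = 0.00358), where it called 2.42% of its genes.

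Cre in Trf1f/f cells also called none of the 9 tested members, where 3.42% of all genes were called (2.65% increased and 0.765% reduced). Here the chromosome 9 proteases were expressed and could be measured. *Mmp3* measured 14.8, 16.7 and 16.9 CPM in controls against 11.4, 12.4 and 9.93 CPM in +Cre cells. Every +Cre library was lower, by a log2 fold change of -0.52 ± 0.215, but the edgeR adjusted p was 0.207. Limma on log2(TPM + 1) called it, with an adjusted p of 2.55e-05 at the same log2 difference.

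*Mmp13* was at 3.15, 3.79 and 3.62 CPM in controls, then 3.27, 3.71 and 2.68 CPM in +Cre cells, and *Mmp10* was at 0.371, 0.621 and 0.372 CPM and 0.351, 0.596 and 0.348 CPM. Neither pair of groups was separate, nor was that of *Mmp9*, with 1.21, 0.690 and 1.34 CPM and 1.19, 1.01 and 1.12 CPM. *Timp3* went from 255, 268 and 272 CPM to 323, 338 and 285 CPM, higher in every library by 0.25 ± 0.0821 on the log2 scale (adjusted p = 0.0804). The log2 fold changes of *Mmp2*, *Mmp14*, *Timp1* and *Timp2* lay between -0.11 and 0.07. At an unadjusted p under 0.05, 2 members (*Mmp3* and *Timp3*) would be counted, where 17.3% of all genes would, and DESeq2 called 0.

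Whether the effect of Cre differed between lines was tested as an interaction. Against the RTEL1 CA line, whose cells also carry the floxed *Rtel1* alleles, 4 of the 6 members responded more negatively to Cre in the Rtel1f/f line. Of all genes 25.1% had a different response, 12.8% more positive and 12.3% more negative. The members differed on the log2 scale by -0.52 (*Mmp2*), -2.30 (*Mmp9*), -0.59 (*Timp2*) and -1 (*Timp3*). Against the Trf1f/f line 5 of the 6 differed, where 30.2% of all genes did (15.8% more positive and 14.5% more negative), with *Mmp14* (-0.63) joining these, and so did *Mmp10* (3.94). Of the calls against Trf1f/f, that of *Timp2* (-0.45) was lost without Rtel1f/f +Cre replicate 3, Rtel1f/f +GFP replicates 2 or 3, Trf1f/f +Cre replicate 3 or Trf1f/f +GFP replicate 2 (adjusted p from 0.0107 to 0.0191), and that of *Mmp10* without Rtel1f/f +GFP replicates 1 (0.0116) or 3 (0.0152). Without Rtel1f/f +GFP replicate 2 the *Mmp10* value moved to 5.69 and was called. *Timp3* also differed between the RTEL1 CA and Trf1f/f lines, by -0.62, where 0.62% of all genes did (0.0729% more positive and 0.547% more negative in RTEL1 CA cells). This last call was lost without any single library of those lines except Trf1f/f +Cre replicate 3, with adjusted p from 0.0106 to 0.0646.

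The members also differed between the +GFP cells of the 3 lines, which received no Cre. In RTEL1 CA +GFP cells 5 of the 6 members were lower than in Rtel1f/f +GFP cells, where 44.7% of all genes differed (22.6% higher and 22.1% lower, with 22.5% of calls higher on TPM against 50.6% on counts). These were *Mmp9* (log2 difference -4.41 ± 0.237), *Timp3* (-1.06 ± 0.083), *Mmp14* (-0.63 ± 0.105), *Mmp2* (-0.46 ± 0.0679) and *Timp2* (-0.43 ± 0.0679), with adjusted p of at most 5.75e-05 in edgeR. For *Timp2*, the 621 to 702 CPM of RTEL1 CA +GFP cells lay beside the 629 to 708 CPM of Rtel1f/f +Cre cells. *Mmp14* was likewise at 206 to 255 CPM beside 188 to 234 CPM. The other called members did not overlap between these groups. *Mmp9* was lower in RTEL1 CA +GFP cells, at 4.48 to 7.41 CPM against 19.5 to 30.5 CPM. *Mmp2* (363 to 413 against 318 to 348 CPM) and *Timp3* (112 to 132 against 96.1 to 103 CPM) were higher. The comparison shares its Rtel1f/f +GFP libraries with those of *Rtel1* loss and TMPyP4. Line history, the vector and its mutant protein cannot be told apart here.

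In Trf1f/f +GFP cells the chromosome 9 proteases stood far above the Rtel1f/f line, a direction that the filter in part fixes. Of the 6 members, 3 differed from Rtel1f/f +GFP cells, where 54.9% of all genes did (30.3% higher and 24.5% lower). Summed counts, scaled for library size, gave ratios of 386 for *Mmp3* (95% counting interval 177 to 1050, 2047 against 6 counts), 25.3 for *Mmp13* (16.2 to 41.8, 447 against 20 counts) and 65.6 for *Mmp10* (11.3 to 2630, 58 against 1 count). Among the 8 promoters searched, the 3 that hold TGAGTCA belong to these genes, and a link to their level was not tested. *Mmp9* went the other way, with 1.21, 0.690 and 1.34 CPM in Trf1f/f +GFP cells (log2 difference -6.97 ± 0.280, edgeR adjusted p = 5.03e-13), the lowest level of the 3 lines. Without Rtel1f/f +GFP replicate 1 the fitted log2 difference of *Mmp3* moved from 8.49 to 9.43, and without replicate 2 that of *Mmp10* moved from 5.53 to 7.26, and both stayed called.

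*Mmp14* was higher in Trf1f/f than in Rtel1f/f +GFP cells, at 485, 445 and 441 CPM (0.36 ± 0.105, adjusted p = 0.00545), and *Timp2* lower, at 730, 767 and 790 CPM (-0.24 ± 0.0678, adjusted p = 0.00414). The *Mmp14* call was lost on TPM values (limma adjusted p = 0.0161) and without Rtel1f/f +GFP replicate 1 (0.0316) or Trf1f/f +GFP replicate 1 (0.0257). That of *Timp2* was lost without Rtel1f/f +GFP replicates 2 (0.0542) or 3 (0.0265) and Trf1f/f +GFP replicates 1 (0.0231) or 2 (0.0294), with DESeq2 size factors (0.0139), with no filter (0.0124) and with only these groups (0.0176). *Mmp2*, *Timp1* and *Timp3* did not pass, with log2 differences of -0.02, 0.09 and 0.04. Fibroblast markers summed to 21500 to 28700 CPM in Trf1f/f and 8470 to 12300 CPM in RTEL1 CA +GFP cells, and their part in these differences was not tested.

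Summed over the 10 members in TPM, transcripts of the 4 inhibitors outnumbered those of the 6 proteases in every library. Other metalloproteinase genes are not in these sums, among them *Mmp11* (65.1 CPM in Rtel1f/f +GFP cells) and *Mmp19* (44.4 CPM in Trf1f/f +GFP cells). The 6 proteases summed to 706, 812 and 757 TPM in Rtel1f/f +GFP cells, 381, 346 and 349 TPM with Cre and 533, 500.2 and 464 TPM with TMPyP4. The inhibitors summed to 1023, 1144 and 1074 TPM, 717, 839 and 779 TPM, and 761, 834 and 777 TPM in the same groups. The ratio of inhibitors to proteases was 1.41 to 1.45 with GFP, 1.88 to 2.43 with Cre and 1.43 to 1.68 with TMPyP4, so that +Cre libraries were separate from the controls while treated libraries partly shared the controls' range. In RTEL1 CA cells the ratio was 1.67 to 2.28 with GFP and 2.02 to 2.65 with Cre, which overlapped, although it was higher with Cre in each same-numbered pair (1.67 to 2.02, 2.28 to 2.65 and 2.01 to 2.60), and in Trf1f/f cells it was 1.18 to 1.43 and 1.37 to 1.57, which also overlapped. The sums follow the TPM scale and its shift between groups, which cancels in the ratio. With 3 libraries a group, an exact permutation test cannot go below 0.1, and none was run on the ratio.

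**Figure D3:**
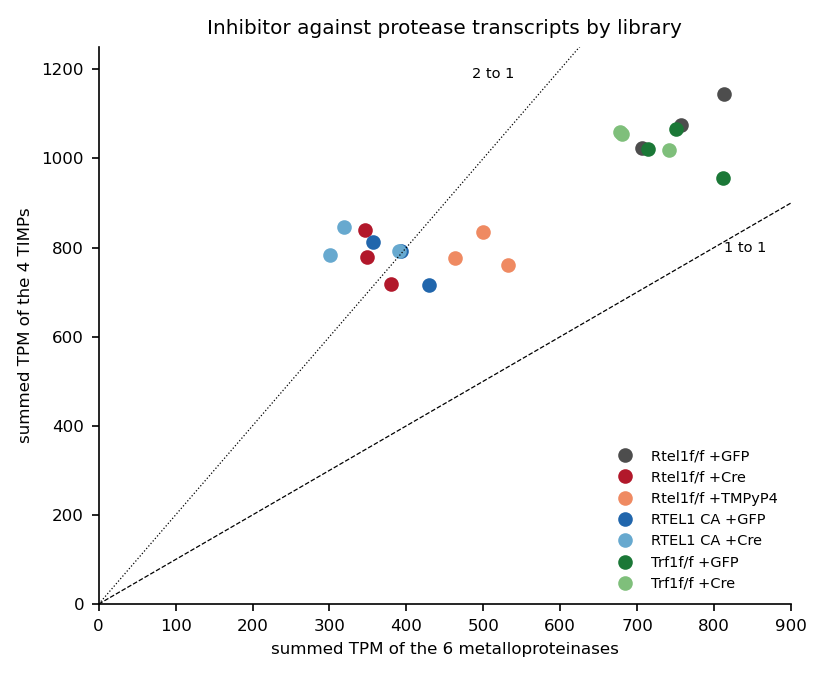
Summed TPM of the 4 inhibitors (vertical axis) against that of the 6 proteases (horizontal axis), 1 point per library, with lines at ratios of 1 and 2 inhibitors per protease. Rtel1f/f +GFP and Trf1f/f libraries lie to the right, at 677 TPM of proteases or more, and the Rtel1f/f +Cre and RTEL1 CA libraries at 301 to 429 TPM.

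Other genes of pericellular proteolysis were examined in lists that, like the members, were put together with earlier results of these data known. Of 17 other metalloproteinase genes 8 passed the filter, and 6 of these were reduced and 0 increased after *Rtel1* loss (median log2 fold change -1.33, all genes -0.034). In that comparison 21% of all genes were reduced and 22% increased. The reduced metalloproteinase genes included *Mmp23* (-2.66 ± 0.274), which is held in membranes until cleaved, *Mmp19* (-1.42 ± 0.117) and the stromelysin-3 gene *Mmp11* (-1.24 ± 0.0945). TMPyP4 reduced 2 of the 8, *Mmp23* (-1.87 ± 0.248) and *Mmp19* (-0.66 ± 0.114), where 13.4% of all genes were reduced. Cre called 0 of the 8 in RTEL1 CA cells by edgeR or DESeq2 (1 at an unadjusted p under 0.05) and 1 in Trf1f/f cells, *Mmp11* (-0.51 ± 0.0933). By edgeR, Cre called 1.09% of all genes in RTEL1 CA cells and 3.42% in Trf1f/f cells. *Mmp23* was at 26.3 ± 0.721 CPM in Trf1f/f and 0.804 ± 0.128 CPM in Rtel1f/f +GFP cells (SD, n = 3).

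Proteins that restrain, bind or process metalloproteinases formed a list of 11 genes, 9 of them tested. After *Rtel1* loss 5 were reduced and 1 increased (median -1.01), and after TMPyP4 5 were reduced and 0 increased (median -0.80). Of all genes 21% were reduced and 22% increased after *Rtel1* loss, and 13.4% and 16.6% after TMPyP4. *Reck*, a membrane-anchored inhibitor of several metalloproteinases, fell by 1.57 (SE 0.144) and 1.36 (SE 0.143) on the log2 scale, and *Thbs2*, whose product helps to clear MMP2, fell by 1.52 (SE 0.104) and 1.22 (SE 0.103). *Pcolce*, an enhancer of procollagen processing with a TIMP-like domain, fell by 1.01 (SE 0.175) and 0.80 (SE 0.174). *Cd44*, a docking site for MMP9 and MMP14 on the cell surface, rose by 1.12 (SE 0.0934) after *Rtel1* loss. In Trf1f/f cells *Cd44* (0.51 ± 0.0926) and *Thbs1* (0.55 ± 0.094) rose with Cre, and in RTEL1 CA cells 0 of 9 were called by edgeR or DESeq2 (2 at an unadjusted p under 0.05).

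Plasmin, which activates several metalloproteinases, is made by the plasminogen activators and held back by serpins. Of 8 such genes 6 were tested. After *Rtel1* loss 4 were increased and 1 reduced (median 1.41), and after TMPyP4 3 were increased and 1 reduced (median 1.02). The shares over all genes were 22% increased and 21% reduced after *Rtel1* loss, and 16.6% and 13.4% after TMPyP4. The increased genes of the list were serpins and, after *Rtel1* loss, a receptor gene, and not the activators themselves. The inhibitor gene *Serpine2* rose in all 4 comparisons (log2 fold changes 3.59, 2.67, 0.97 and 0.93), from only 0.113 ± 0.0388 CPM in Rtel1f/f +GFP cells but from 88.3 ± 2.79 CPM in Trf1f/f +GFP cells (SD, n = 3). It was the only one of the 6 called in the RTEL1 CA and Trf1f/f lines. The receptor gene *Plaur* rose by 1.04 (SE 0.225) after *Rtel1* loss. *Plat*, an activator, fell by 0.73 (SE 0.0686) after *Rtel1* loss and by 1.28 (SE 0.0694) after TMPyP4.

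ADAM and ADAMTS genes, which encode related metalloproteases, some of which TIMP3 also inhibits, moved in both directions. Of 18 genes 17 were tested, with 4 increased and 7 reduced after *Rtel1* loss (median -0.20) and 3 increased and 4 reduced after TMPyP4 (median -0.12). Over all genes, 22% were increased and 21% reduced after *Rtel1* loss, and 16.6% and 13.4% after TMPyP4. *Adam12* (2.46 ± 0.230), *Adam8* (1.43 ± 0.141) and *Adamts6* (1.03 ± 0.0881) rose most after *Rtel1* loss. The procollagen peptidase gene *Adamts2* (-1.62 ± 0.215), the aggrecanase gene *Adamts4* (-1.40 ± 0.224) and *Adamts12* (-1.16 ± 0.104) fell most. After TMPyP4, *Adam12* (1.45 ± 0.237), *Adamts6* (1.13 ± 0.0882) and *Adamts1* (0.39 ± 0.087) rose and *Adamts7* (-1.28 ± 0.249), *Adamts2* (-1.01 ± 0.211) and *Adamts4* (-0.99 ± 0.221) fell. By edgeR, Cre called 0 of the 17 in RTEL1 CA cells (5 at an unadjusted p under 0.05, 3 by DESeq2) and 0 in Trf1f/f cells (3 and 1).

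The AP-1 and Ets factors that act at many metalloproteinase promoters were all tested. After *Rtel1* loss 6 of 14 were increased and 3 reduced (median 0.26), and after TMPyP4 2 were increased and 2 reduced (median 0.19). Of all genes 22% were increased and 21% reduced after *Rtel1* loss, and 16.6% and 13.4% after TMPyP4. *Fosl1* rose by 1.58 (SE 0.245) after *Rtel1* loss, *Etv4* by 0.95 (SE 0.137) and *Atf3* by 0.73 (SE 0.102). *Fos* fell by 1.80 (SE 0.248) and *Ets2* by 0.59 (SE 0.0737). After TMPyP4 *Atf3* rose by 1.39 (SE 0.103) and *Ets1* by 0.32 (SE 0.0884), and *Fos* fell by 1.37 (SE 0.244). Between the +GFP cells of the Trf1f/f and Rtel1f/f lines, 5 of the 14 were higher in Trf1f/f cells and 2 lower (median 0.04). Of all genes 30.3% were higher and 24.5% lower there. Among factors averaging 5 CPM or more, *Elf1* (1.33 ± 0.0964), *Atf3* (0.73 ± 0.102) and *Fosl2* (0.62 ± 0.0853) were higher and *Etv4* lower (-0.54 ± 0.138). *Fosb*, below that average, had the largest difference (2.88 ± 0.253). *Atf3* was the only factor called in the Trf1f/f line with Cre (0.83 ± 0.1), and 0 were called in RTEL1 CA cells by edgeR or DESeq2 (3 at an unadjusted p under 0.05).

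**Figure D4:**
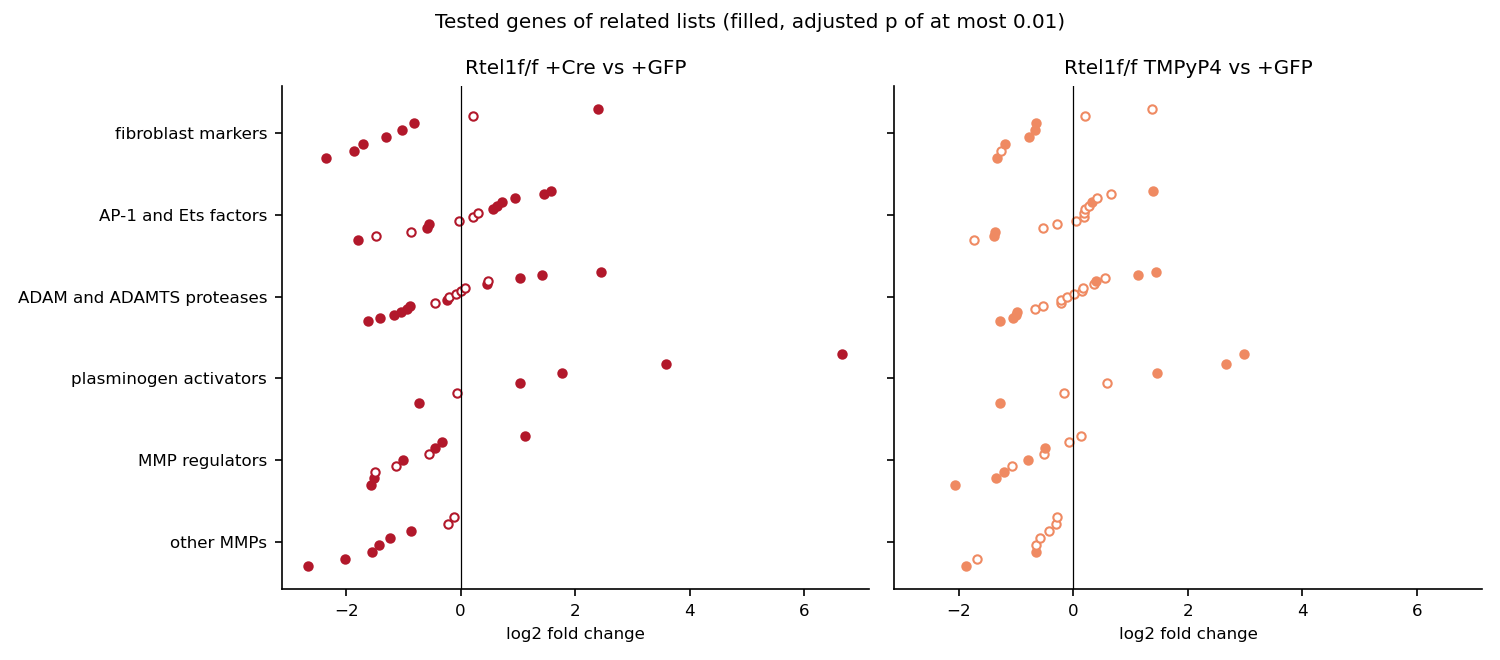
Log2 fold change (horizontal axis) of every tested gene in 5 related lists and of the fibroblast markers (vertical axis), after Rtel1 loss on the left and TMPyP4 on the right, 1 point per gene. Filled points passed an adjusted p of 0.01. The other metalloproteinases all lie below 0 in both panels, with medians of -1.33 and -0.62. The plasminogen activator list also holds serpins and a receptor gene and has medians of 1.41 and 1.02. The activator gene Plat in it lies at -0.73 and -1.28.

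Genes whose log2 CPM followed a member most closely over the 21 libraries were sought among the 10233 genes that averaged 5 CPM or more. These correlations run over differences between the 3 lines as well as between treatments within a line. The part of either in them was not tested, so the correlations are given as a description. *Mmp3* was followed most closely by *Lgr5* (Pearson r = 0.995) and *Lrrc15* (0.992), and *Mmp13* by *Penk* (0.985) and *Lrrc15* (0.982). *Mmp9* was closest to *Foxred2* (0.981) and *Ablim1* (0.977), *Mmp2* to *Mtss1l* (0.979) and *Atrnl1* (0.975), and *Mmp14* to *Myo7a* (0.991) and *St5* (0.983). *Timp3* was closest to *Tsc22d3* (0.974) and *Gpr176* (0.955), *Timp2* to *Raet1e* (0.934) and *Slc37a3* (0.912), and *Timp1* to *Cdip1* (0.888) and *Cdadc1* (0.836).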

How the data were processed

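RNA of 21 mouse embryonic fibroblast cultures, 3 in each of 7 groups taken from the labels, had been sequenced. After adapter trimming (cutadapt 1.9.1) and alignment (STAR 2.5.2a), the authors used RSEM 1.3.0 to estimate the expected count of each mm10 RefSeq gene, strand-specifically and without normalization. The deposited TPM values come from the same step, and TPM is a share within a library. None of the expected counts had a fraction, so they were used unrounded. The files hold 0 value columns without a sample.

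Counts were tested in R 4.3.3 with edgeR 4.0.16: TMM, filterByExpr by group, and a robust quasi-likelihood fit of all 21 libraries (14 residual degrees of freedom, two-sided, Benjamini-Hochberg adjustment over 13719 genes, called at 0.01). SEs are the log2 fold change over the square root of F. CPM values use the normalized library size. Ratios of low counts have exact 95% binomial intervals. On data simulated for *Rtel1* loss (13421 genes), 98 genes were changed by 1 log2 unit and 98 by 2, and 69.4% and 93.9% of them were called. Far fewer genes were changed there than the 43% called in the data, so these rates need not hold for the data. The fits were repeated in DESeq2 1.42.0, in edgeR with DESeq2 size factors, without the filter, on only the compared groups, with a replicate block, in limma 3.58.1 on log2(TPM + 1), and leaving out each library.

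The pairing of libraries by replicate number was checked through the correlation of deviations from group means (11840 genes averaging 1 CPM or more). All 3 correlations exceeded 0.1 between RTEL1 CA +Cre and +GFP cells (0.86, 0.84 and 0.42) and between Rtel1f/f +Cre and TMPyP4-treated cells (0.72, 0.76 and 0.41), and in none of the other comparisons. The closest pair of libraries shared 1.39% of counts exactly, so none was a duplicate.

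The text names all members, the targeted genes, from each list the called genes averaging 5 CPM or more (at most 3 rising and 3 falling), and the 2 closest genes to each member above 1 CPM. The values of 1 gene of the plasminogen activator list are not reported here. The members and lists were chosen with earlier results of these data known. Figures were drawn with Python and matplotlib.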

Additional observations from a re-analysis of the deposited data

Results flagged for a closer look

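The members listed here had a Cre effect that differed between lines by an interaction term in edgeR (adjusted p of at most 0.01 over all 13719 genes). No group was large enough to be examined for a library standing apart, since each has 3.

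Between the Rtel1f/f and RTEL1 CA lines, the log2 fold change with Cre differed by -0.52 ± 0.0959 (SE) for *Mmp2* (adjusted p = 0.000381), by -2.3 ± 0.304 for *Mmp9* (adjusted p = 2.16e-05), by -0.59 ± 0.0959 for *Timp2* (adjusted p = 0.00013) and by -1 ± 0.117 for *Timp3* (adjusted p = 5.42e-06). The RTEL1 CA controls were already lower for each of these genes.

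Between the Rtel1f/f and Trf1f/f lines it differed by -0.64 ± 0.0959 for *Mmp2* (adjusted p = 4.28e-05), by -2.42 ± 0.366 for *Mmp9* (adjusted p = 5.87e-05), by -0.63 ± 0.148 for *Mmp14* (adjusted p = 0.00226) and by -1.62 ± 0.117 for *Timp3* (adjusted p = 1.25e-08). For *Timp2* it was -0.45 ± 0.0959 (adjusted p = 0.00106, up to 0.0191 with a library left out), and for *Mmp10*, with 1 count over the Rtel1f/f controls, a fitted 3.94 ± 0.958 (adjusted p = 0.00352) that depends on the prior count. *Mmp9* had only 0.690 to 1.34 CPM in the Trf1f/f line.

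Between the RTEL1 CA and Trf1f/f lines *Timp3* differed by -0.62 ± 0.116 (adjusted p = 0.00811, up to 0.0646 with a library left out), with -0.37 in the first and 0.25 in the second, neither called alone.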

How the results depend on the processing

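Counted over the 9 tested members, the number called stayed within 1.5 times of its value in every comparison except those named here. With TMPyP4 the replicate block called 7 in place of 4, adding *Mmp2*, *Mmp14* and *Timp1*, although the numbers do not pair these libraries. In RTEL1 CA cells DESeq2 and the replicate block each called 1, *Timp3*, in place of 0. In Trf1f/f cells limma on TPM called 1, *Mmp3*, in place of 0. For *Rtel1* loss against TMPyP4 a fit of only these groups called 2 in place of 6, with 6 members tested. For the difference between the RTEL1 CA and Trf1f/f lines, DESeq2 size factors, no filter and a fit of only these groups each called 0 in place of 1. The replicate block kept counts of 6, 0, 6, 5 and 6 for *Rtel1* loss, Terf1 loss, *Rtel1* loss against TMPyP4, and RTEL1 CA and Trf1f/f controls against Rtel1f/f controls, and called 5 in place of 4 for the difference between the Rtel1f/f and RTEL1 CA lines. With 1 library left out the counts were 6 to 6 for *Rtel1* loss, 3 to 5 for TMPyP4, 4 to 6 for *Rtel1* loss against TMPyP4, 4 to 6 for Trf1f/f against Rtel1f/f controls, 4 to 6 for the difference between the Rtel1f/f and Trf1f/f lines, and 0 to 1 for that between the RTEL1 CA and Trf1f/f lines. The cause of these shifts was not tested.

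Of 939 values for single members under an alternative, 843 kept their direction and side of the threshold, 48 lost a call, 15 gained one and 33 changed sign, all of the last for values not called. On TPM, *Mmp13* (-0.02) and *Timp1* (-0.10) changed sign with *Rtel1* loss, *Timp2* (-0.01) with Terf1 loss and *Timp1* (-0.14) between RTEL1 CA and Rtel1f/f controls. *Timp2* between *Rtel1* loss and TMPyP4 was 0.02 in DESeq2, 0.02 with its size factors and 0.01 with only these groups. With 1 library left out, the log2 fold change with *Rtel1* loss ran for *Mmp3* from -1.49 to 0.64 and for *Mmp13* from -0.28 to 0.59. With Cre in RTEL1 CA cells, *Mmp3* ran from -1.72 to 0.26, *Mmp9* from -0.27 to 0.04, *Mmp13* from -0.54 to 0.29 and *Timp1* from -0.05 to 0.08. With Terf1 loss, *Mmp9* ran from -0.21 to 0.22, *Mmp10* from -0.38 to 0.21, *Timp1* from -0.01 to 0.12 and *Timp2* from -0.02 to 0.04. *Timp2* ran from -0.04 to 0.04 between *Rtel1* loss and TMPyP4, *Mmp3* from -1.57 to 0.87 between RTEL1 CA and Rtel1f/f controls, and *Timp3* from -0.04 to 0.11 between Trf1f/f and Rtel1f/f controls. Among the other metalloproteinases, 2 of 8 were reduced by TMPyP4 on counts, 7 on TPM and 6 with the replicate block. ADAM and ADAMTS genes after *Rtel1* loss were split 4 up and 7 down on counts and 3 up and 9 down on TPM. Depth limits *Mmp3*, *Mmp10*, *Mmp13* and *Timp4* outside the Trf1f/f line, where 3 counts correspond to 0.0951 CPM in the shallowest library.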
